A study of Mus musculus with 5 samples.

Results

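RNA was sequenced from EpH4 cells, a spontaneously immortalized mammary epithelial line from a BALB/c mouse, and 52 interferon-stimulated effector genes were followed among the 12934 genes of the count table. The members were taken from a list of known interferon-stimulated genes that act downstream of the signalling chain, so that receptors, kinases, STAT and IRF factors and antigen presentation genes were left out. The rule itself uses no measured value beyond a gene being listed in the count table, but the list was put together with earlier results of these data known. All 5 libraries came from cells that carried a lentiviral Cas9 and had been selected with blasticidin. In 3 libraries (sgControl) the cells also carried a control single-guide RNA, and in 2 libraries (sgMef2d) they carried a guide against Mef2d, which encodes a MADS-box transcription factor. The cells were grown in DMEM with fetal bovine serum, and the labels name no interferon, virus or other stimulus in either group. Stable clones were selected after each infection, but neither the number of clones behind a library nor the guide behind each sgMef2d library is given in the sources used here. The labels do not say whether the libraries of a group came from separate cultures, and the methods speak of repeated experiments only in general, so the p-values below measure only the spread between these libraries.

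Type I and type III interferons bind their receptors and activate the kinases JAK1 and TYK2, which phosphorylate STAT proteins. With IRF9 these form a complex that binds the interferon-stimulated response element (ISRE) in the promoters of target genes, while interferon gamma acts mainly through STAT dimers on the gamma-activated site (GAS). The target genes encode proteins that sense foreign nucleic acid, block translation, degrade RNA or stop virus entry. Epithelial cells express many of them at a low level without added interferon.

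Of the members, 15 had an ISRE core before the start site in their promoter window, and 8 of these were called higher in sgMef2d cells below. Sequences are shown first for those 8, chosen for their calls, and for Ifit3 with its near-copy Ifit3b. The 5 not shown, Oas1c, Gbp2, Gbp7, Irgm1 and Bst2, had no call. The windows are those of RefSeq on GRCm38.p6, with 250 bases before and 50 after each start, and 40 of the 52 members had one. The core searched was GAAANNGAAA on either strand, which reads as a pair of TTTC words in the reverse direction, and the capitals mark it. Each stretch runs 5′ to 3′ in the direction of the gene and keeps up to 25 bases on each side. The stretches lie at chr4:156200850-156200921 on the minus strand (Isg15), chr19:34640760-34640838 on the plus strand (Ifit1), chr12:26456538-26456597 on the minus strand (Rsad2), chr5:120907526-120907570 on the minus strand (Oas1a), chr5:120777700-120777759 on the minus strand (Oas3), chr11:58199497-58199555 on the plus strand (Igtp), chr11:58214888-58214947 on the plus strand (Irgm2), chr3:142559974-142560039 on the plus strand (Gbp3), chr19:34583348-34583441 on the plus strand (Ifit3) and chr19:34607744-34607837 on the plus strand (Ifit3b).
Isg15: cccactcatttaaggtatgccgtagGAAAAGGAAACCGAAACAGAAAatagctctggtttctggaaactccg
Ifit1: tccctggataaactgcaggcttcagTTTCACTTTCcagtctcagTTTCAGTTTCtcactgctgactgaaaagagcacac
Rsad2: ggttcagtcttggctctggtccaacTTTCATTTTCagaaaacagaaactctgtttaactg
Oas1a: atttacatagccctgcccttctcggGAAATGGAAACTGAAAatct
Oas3: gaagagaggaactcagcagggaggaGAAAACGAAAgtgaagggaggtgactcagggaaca
Igtp: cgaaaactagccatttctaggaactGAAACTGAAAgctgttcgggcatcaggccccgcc
Irgm2: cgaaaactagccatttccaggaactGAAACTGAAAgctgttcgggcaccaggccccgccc
Gbp3: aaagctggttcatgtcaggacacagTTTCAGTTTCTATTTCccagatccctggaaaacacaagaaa
Ifit3: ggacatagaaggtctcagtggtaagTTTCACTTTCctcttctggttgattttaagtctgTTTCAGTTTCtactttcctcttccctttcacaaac
Ifit3b: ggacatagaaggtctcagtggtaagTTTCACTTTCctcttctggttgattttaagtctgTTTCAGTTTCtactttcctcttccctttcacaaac

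Isg15 held 3 overlapping cores, the first of them 78 bases before the start, and Ifit1 held 2 cores that began 104 and 85 bases before it. The stretches of Ifit3 and Ifit3b were identical over 94 of 94 bases, and those of the neighbouring GTPase genes Igtp and Irgm2 over 57 of 59. An ISRE core was found in the windows of 21 of the 40 members with a window (52.5%), and in 3.66% of the 9359 genes tested that had one. A match of letters is a description of the window and does not show that a factor binds there.

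Of the 52 members, 51 had enough counts for the test and 1, Mx1, did not. In sgMef2d cells 25 of the 51 rose and 1, Ifit2, fell past an adjusted p of 0.05 in edgeR's quasi-likelihood test, fitted over all 12483 genes tested with Benjamini-Hochberg adjustment. Of all genes tested, 3.67% rose and 4.28% fell. The log2 fold change (sgMef2d minus sgControl) was positive in 47 members and negative in 4, with a median of 0.40 and quartiles of 0.20 and 0.79, whereas the median of all genes tested was 0.00. The changes were modest: 5 members rose by 1 or more on the log2 scale, and the range ran from -0.36 for Ifit2 to 2.26 for Oas2. Both sgMef2d libraries lay above all 3 sgControl libraries in 42 members and below them in 2, where 20.6% and 20.5% of all genes tested did so. The plot of fold changes by role shows the members in the order in which they are described.

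**Figure D1:**
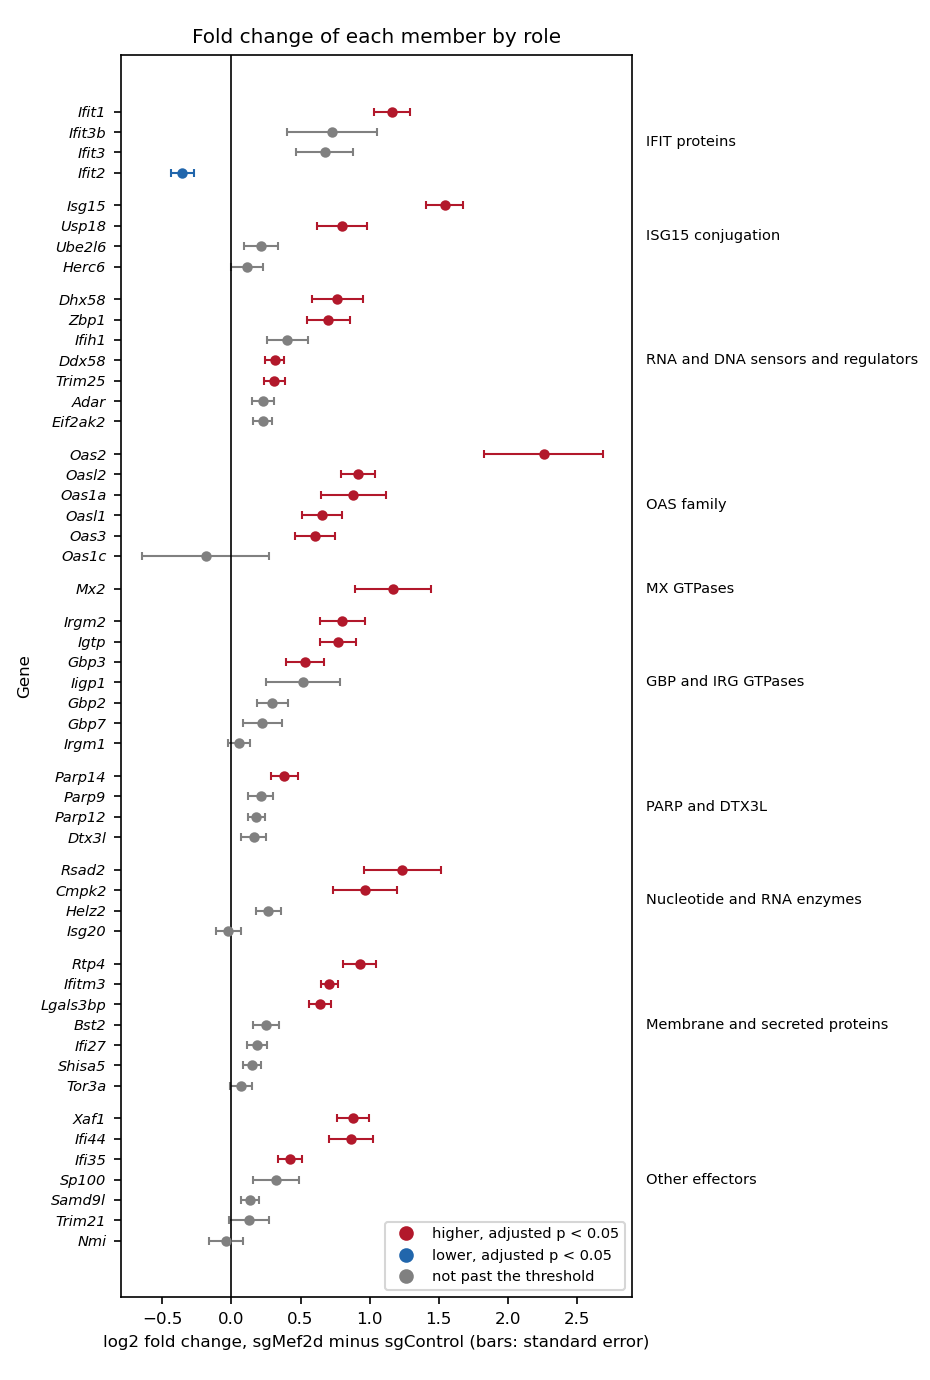
Log2 fold change (sgMef2d minus sgControl, horizontal axis) of the 51 members tested, ordered within their roles, with bars for the standard error of the edgeR fit. Red points rose and the blue point (Ifit2) fell at an adjusted p below 0.05, grey points did not pass, and 47 of the 51 points lie to the right of 0.

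Library totals over the listed genes ranged from 13601145 to 20498563 counts, so that 3 counts corresponded to between 0.146 and 0.22 CPM (counts per 1000000 counts of the library). The members took 0.133%, 0.137% and 0.136% of the counts in the sgControl libraries and 0.17% and 0.174% in the sgMef2d libraries. The libraries labelled sgMef2d had 64.2 and 65.8 CPM of Mef2d against 64.3, 76.9 and 71.5 in sgControl (log2 fold change -0.12, SE 0.08, adjusted p = 0.4), and an edited transcript can still be counted, so this level does not show the edit. Library sgControl replicate 1 stood apart: the chi-square per degree of freedom of its counts against the other 2 controls was 10.3 and 13.3. It was 1.99 between those 2 and 2.03 between the sgMef2d libraries. Those 2 controls against the sgMef2d libraries gave 10.6 to 12.7. On this measure sgControl replicate 1 thus lay about as far from the other controls as the sgMef2d libraries did. Without sgControl replicate 1 the test called 35 members higher and 1 lower, with 14.6% of all genes tested called higher, and the median of the members was 0.44. Only Oas2 passed the count filter through the sgMef2d libraries alone, and 24 of the other 50 members tested were called higher, with a median of 0.39.

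Isg15 had the second largest log2 fold change of the members tested. It encodes a ubiquitin-like protein that is attached to newly made proteins and is also secreted, and the gene lies at chr4:156199424-156200818 on GRCm38, the build of all positions given here. Isg15 was at 7.41, 6.45 and 6.74 CPM in the sgControl libraries and at 17.9 and 22.6 CPM in the sgMef2d libraries. All control values lay below both sgMef2d values, and Isg15 rose 2.91-fold (log2 fold change 1.54, SE 0.13, adjusted p = 5e-05). Usp18, the protease that removes ISG15 and also restrains the type I interferon receptor, was at 5.61, 3.55 and 5.06 CPM against 8.83 and 7.95 (log2 fold change 0.80, SE 0.18, adjusted p = 0.0207). Its groups did not overlap, although its controls spread more widely than those of Isg15, and its call was lost without sgMef2d replicate 1 or 2 (adjusted p = 0.215 and 0.113). The conjugating enzyme Ube2l6 and the ligase Herc6 had log2 fold changes of 0.21 and 0.11 and did not pass the test.

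The IFIT proteins, which bind viral RNA and hold back its translation, did not move together. Ifit1 (chr19:34640871-34650009) was at 7.26, 6.38 and 6.52 CPM in sgControl and at 16.5 and 13.8 CPM in sgMef2d. The groups were well separated, and Ifit1 rose 2.24-fold (log2 fold change 1.16, SE 0.13, adjusted p = 3.59e-04). Ifit2, which lies in the same gene cluster (chr19:34550694-34576419), was at 27.6, 29.7 and 29.6 CPM in sgControl and at 22.7 and 22.4 CPM in sgMef2d. It was lower in both sgMef2d libraries than in any control and fell by 0.36 on the log2 scale (SE 0.08, adjusted p = 0.0241). The call of Ifit2 was the less firm of the pair, since its adjusted p was 0.0525 in DESeq2, 0.0879 without sgControl replicate 2, 0.0578 without sgControl replicate 3, and 0.183 and 0.227 without sgMef2d replicate 1 or 2, while the log2 fold change stayed between -0.39 and -0.34 in every alternative. Before the start site, Ifit1 had 2 ISRE cores and neither window of Ifit2 had one in the exact letters. Ifit2 did have an ISRE core with 1 mismatch allowed, and a GAS core. The part of these cores in the changes was not tested.

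Ifit3 and Ifit3b share 51.2% and 45% of their 50-base words with other genes, each most often with the other. Reads of one can thus be counted for the other or be dropped. Ifit3 was at 4.14, 3.19 and 2.57 CPM against 5.65 and 5.19, and Ifit3b at 0.926, 1.49 and 1.61 CPM against 1.71 and 2.63. Neither passed alone (log2 fold changes 0.67 and 0.73, adjusted p = 0.0719 and 0.208). With the counts of the pair summed, an alternative chosen after seeing the data, the level was 5.07, 4.68 and 4.18 CPM against 7.36 and 7.81, which rose (log2 fold change 0.69, SE 0.15, adjusted p = 0.0179).

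In the OAS family 5 of the 6 members rose. These enzymes are activated by double-stranded RNA and make short 2′-5′ oligoadenylates that switch on the nuclease RNase L, and the OAS-like proteins act on RNA sensing in other ways. Oas2 (chr5:120730333-120749853), 1 of the 5, passed the count filter through the sgMef2d libraries alone. It had the largest log2 fold change of the members tested. But in sgControl it was also the least abundant of them per length, with counts of 10, 4 and 7 there and of 25 and 42 in sgMef2d. In CPM this was 0.488, 0.284 and 0.513 against 1.47 and 2.83, and the fitted log2 fold change was 2.26 (SE 0.43, adjusted p = 0.00815). All control counts lay under the lower sgMef2d count, and without sgMef2d replicate 2 the value was 1.74 with an adjusted p of 0.151.

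Oasl2 rested on more counts. It was at 8.73, 10.1 and 10.7 CPM in sgControl and at 17.3 and 19.6 CPM in sgMef2d, with no overlap (log2 fold change 0.92, SE 0.12, adjusted p = 9.21e-04). Oasl1 and Oas3 rose by 0.66 and 0.60 on the log2 scale (adjusted p = 0.0192 and 0.0258). The call of Oas3 was lost in DESeq2 (adjusted p = 0.0736), and both calls were lost without sgMef2d replicate 1 (0.257 for Oasl1 and 0.22 for Oas3) or replicate 2 (0.0762 and 0.176). Oas1a, at 1.56, 1.56 and 1.39 CPM against 2.88 and 2.69, rose by 0.88 (SE 0.24, adjusted p = 0.0435) when counted alone. This call held in 6 of 14 alternatives, and the adjusted p was 0.0503 in the legacy form of the test, 0.0524 in limma-voom, 0.168 in DESeq2, 0.096 and 0.0924 without sgControl replicate 2 or 3, and 0.301 and 0.232 without sgMef2d replicate 1 or 2. Oas1a shares 57.6% of its 50-base words with other genes, most often with Oas1g. With the counts of both summed, again an alternative chosen after seeing the data, the log2 fold change was 0.45 and the call was lost (SE 0.18, adjusted p = 0.15). Oas1c, at 1.66, 1.49 and 0.806 CPM against 0.588 and 1.89, had its sgMef2d values on both sides of the controls (log2 fold change -0.19, SE 0.46).

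The MX proteins are dynamin-like GTPases that trap viral nucleoproteins. Mx2 (chr16:97535308-97560900) had 32, 12 and 18 counts in sgControl and 49 and 43 in sgMef2d, or 1.56, 0.851 and 1.32 CPM against 2.88 and 2.9. The groups did not overlap, and Mx2 rose (log2 fold change 1.17, SE 0.27, adjusted p = 0.0247). The call was lost without sgControl replicate 2 (adjusted p = 0.0696) and without sgMef2d replicate 1 or 2 (0.187 and 0.186). Mx1 was close to the limit of detection in the controls, with 0, 1 and 2 counts, and had 17 and 4 counts in the sgMef2d libraries. Per library total, the 21 counts against 3 gave a ratio of 10.6 with an exact 95% interval from 3.15 to 55.3, which covers counting error only. Most of the Mx1 counts came from sgMef2d replicate 1.

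**Figure D2:**
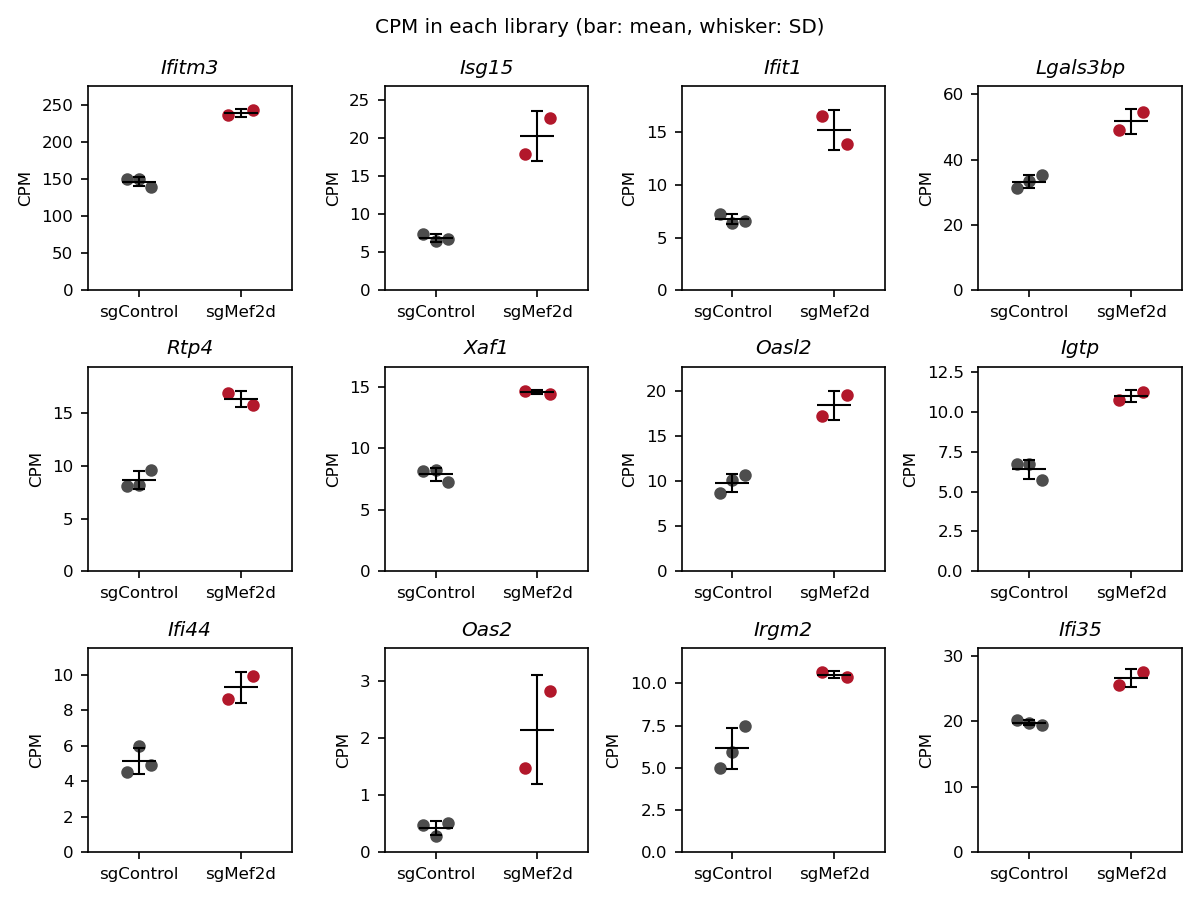
CPM (vertical axes, each from 0) of the 12 members with the smallest p in each sgControl library (grey) and each sgMef2d library (red), with the mean as a bar and the SD as a whisker. In all 12 panels both red points lie above all 3 grey points, and the panels run from Oas2, under 3 CPM in every library, to Ifitm3, between 140 and 244 CPM.

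The viperin gene Rsad2 and its neighbour Cmpk2 act on nucleotides. Viperin makes a chain-terminating analogue of CTP, and Cmpk2 is a mitochondrial nucleotide kinase. Rsad2 (chr12:26442746-26456452) had 22, 13 and 22 counts in sgControl and 45 and 44 in sgMef2d, or 1.07, 0.922 and 1.61 CPM against 2.65 and 2.96. These groups did not overlap, and Rsad2 rose 2.36-fold (log2 fold change 1.24, SE 0.28, adjusted p = 0.0207). Its call was lost without sgControl replicate 2 (adjusted p = 0.0631) and without sgMef2d replicate 1 or 2 (0.13 and 0.204). Cmpk2 was at 2.39, 4.04 and 4.03 CPM against 5.77 and 7.47 (log2 fold change 0.97, SE 0.23, adjusted p = 0.0262), with sgControl replicate 1 the lowest of the controls, and lost its call without sgMef2d replicate 1 or 2 (0.0779 and 0.3). The RNA exonuclease Isg20 did not follow them. Its level was 36.7, 33.8 and 30.9 CPM against 32.5 and 34.3 (log2 fold change -0.02, SE 0.09), and the helicase Helz2, at 0.27 on the log2 scale, did not pass either (adjusted p = 0.103), but did without sgControl replicate 1 (0.00284) or 3 (0.0361).

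Sensors of foreign nucleic acid and their regulators ran from 3.17 CPM (Dhx58) to 104 CPM (Trim25) in the mean of sgControl. All 7 had both sgMef2d libraries above all sgControl libraries, as did 20.6% of all genes tested, and 4 of the 7 rose. The median of their log2 fold changes was 0.31. Ddx58, which encodes the RNA sensor RIG-I, was at 87.2, 99.98 and 95.3 CPM in sgControl and at 115.8 and 117.8 CPM in sgMef2d (log2 fold change 0.31, SE 0.07, adjusted p = 0.0177). Zbp1, a sensor of Z-form nucleic acid, was at 8.24, 6.1 and 6.96 CPM against 10.6 and 12.9 (log2 fold change 0.70, SE 0.15, adjusted p = 0.0177). Dhx58, the RIG-I relative LGP2, and Trim25, the ubiquitin ligase that acts with RIG-I, rose by 0.77 and 0.31 (adjusted p = 0.0283 and 0.0267). The call of Dhx58 was lost in DESeq2 (adjusted p = 0.0655), without sgControl replicate 2 or 3 (0.0868 and 0.0545) and without sgMef2d replicate 1 or 2 (0.301 and 0.106). The calls of Trim25 and Zbp1 were lost without sgControl replicate 2 (0.0749 and 0.0537), without sgMef2d replicate 1 (0.156 and 0.0594) and without sgMef2d replicate 2 (0.301 and 0.26), and that of Ddx58 without sgMef2d replicate 1 or 2 (0.155 and 0.218). The changes of Ifih1, which encodes MDA5 (0.40 on the log2 scale, adjusted p = 0.126), the kinase gene Eif2ak2 (0.23, adjusted p = 0.08) and the RNA editor Adar (0.23, adjusted p = 0.113) did not pass.

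Guanylate-binding proteins and immunity-related GTPases attack the vacuoles that hold intracellular pathogens, and 3 of their 7 genes rose. Igtp was at 6.73, 6.74 and 5.72 CPM in sgControl and at 10.7 and 11.2 CPM in sgMef2d (log2 fold change 0.77, SE 0.13, adjusted p = 0.00447). Irgm2 was at 5.02, 5.96 and 7.48 CPM against 10.7 and 10.4 (log2 fold change 0.80, SE 0.16, adjusted p = 0.0116). Both were separated from their controls, but the pair overlaps on the same strand. Igtp shares 11.8% of its 50-base words with other genes, most often with Irgm2, so the counts of the pair are not fully independent. Without sgMef2d replicate 1 or 2 both calls were lost (adjusted p = 0.0571 and 0.0782 for Igtp, 0.124 and 0.103 for Irgm2). Gbp3 rose by 0.53 (adjusted p = 0.039), a call that held in 9 of 14 alternatives and was lost in DESeq2 (adjusted p = 0.0735), without sgControl replicate 2 or 3 (0.121 and 0.08) and without sgMef2d replicate 1 or 2 (0.117 and 0.386). Gbp2, Gbp7, Iigp1 and Irgm1 had log2 fold changes of 0.30, 0.22, 0.52 and 0.06 and did not pass, although for Gbp2, Gbp7 and Iigp1 both sgMef2d libraries exceeded all controls.

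Ifitm3, a membrane protein that blocks the fusion of entering viruses (chr7:141009586-141010770), was the most abundant member per length, at 217 CPM per kb of exon in sgControl, and had the smallest p. Its level was 151, 151 and 140 CPM in sgControl and 237 and 244 CPM in sgMef2d. The SD was 6.42 CPM in sgControl and 5.46 CPM in sgMef2d around means of 147 and 240 CPM, so the rise of 0.71 on the log2 scale was far larger than the spread (SE 0.06, adjusted p = 4.1e-05). Bst2, or tetherin, which holds budding virus at the cell surface, was next at 82.8 CPM per kb in sgControl. At 85.2, 74 and 65.2 CPM against 86.2 and 92.4 it did not pass the test (log2 fold change 0.25, SE 0.10, adjusted p = 0.144).

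The receptor transporter Rtp4 was at 8.14, 8.23 and 9.67 CPM against 16.9 and 15.8 (log2 fold change 0.93, SE 0.12, adjusted p = 7.97e-04). The secreted glycoprotein Lgals3bp was at 31.3, 33.3 and 35.3 CPM against 48.96 and 54.5 (log2 fold change 0.64, SE 0.08, adjusted p = 7.97e-04). Both were clear of their controls. Ifi27, Shisa5 and Tor3a, with log2 fold changes of 0.19, 0.15 and 0.07, did not pass.

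Among the ADP-ribosyltransferases, Parp14 was at 24.96, 30.1 and 30.8 CPM in sgControl and at 38.3 and 35.7 CPM in sgMef2d (log2 fold change 0.38, SE 0.10, adjusted p = 0.0372). This call was lost without sgControl replicate 2 (adjusted p = 0.0617) and without sgMef2d replicate 1 or 2 (0.311 and 0.184). Parp12 was at 77.6, 73.5 and 73.8 CPM against 83.98 and 85.8 (log2 fold change 0.18, SE 0.06, adjusted p = 0.108). Parp9 and its partner Dtx3l, whose genes overlap on opposite strands, had log2 fold changes of 0.21 and 0.16. In all 4 genes of this role both sgMef2d libraries lay above the controls, as in 20.6% of all genes tested, although 1 of the 4 passed the test.

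Of the 7 other effectors 3 rose. Xaf1, which promotes apoptosis, was at 8.14, 8.23 and 7.26 CPM in sgControl and at 14.7 and 14.4 CPM in sgMef2d (log2 fold change 0.88, SE 0.12, adjusted p = 9.21e-04). Ifi44 was at 4.53, 5.96 and 4.91 CPM against 8.65 and 9.9 (log2 fold change 0.86, SE 0.16, adjusted p = 0.00644). Neither gene had overlapping groups, and Ifi35 also rose, by 0.42 (adjusted p = 0.0119). Ifi44 lost its call without sgMef2d replicate 2 (0.111), and Ifi35 without sgMef2d replicate 1 or 2 (0.0837 and 0.206). Nmi, the binding partner of Ifi35, had a log2 fold change of -0.04, with both sgMef2d values just below all controls. The antibody receptor Trim21, the translation inhibitor Samd9l and the nuclear body protein Sp100 had log2 fold changes of 0.12, 0.13 and 0.32 and did not pass.

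**Figure D3:**
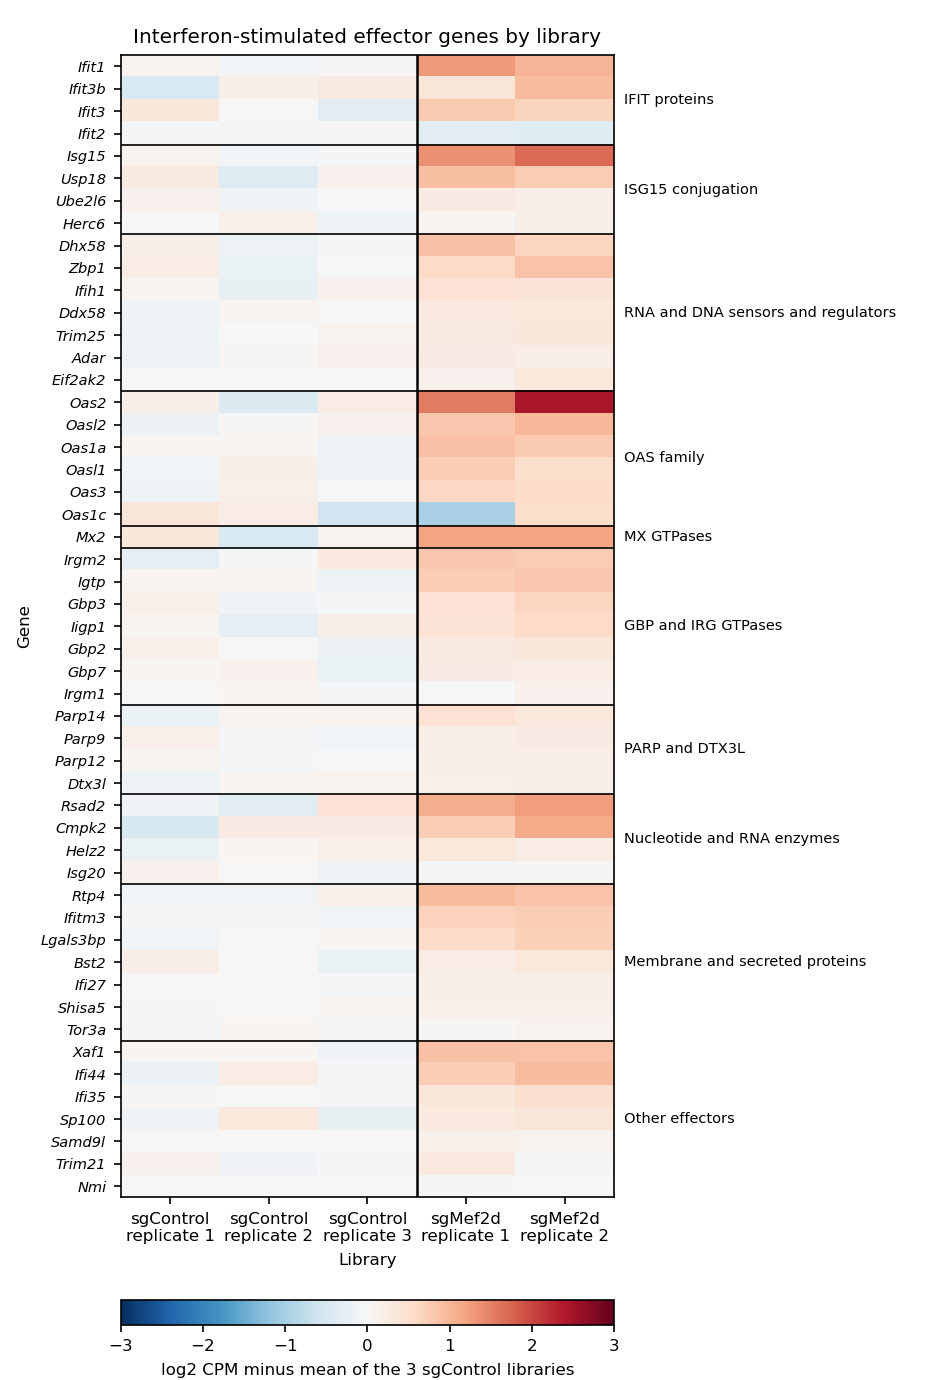
Log2 CPM of each member tested minus its mean over the 3 sgControl libraries (colour, blue below that mean and red above it), with the 5 libraries as columns and the members grouped by role. The sgMef2d columns are red for most members, with medians of 0.37 and 0.48, whereas the medians of the sgControl columns lie between -0.02 and 0.02.

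In 45 members both sgMef2d libraries lay above the control mean, in 2 (Ifit2 and Nmi) both lay below it, and in 4 (Oas1c, Irgm1, Isg20 and Trim21) they lay on both sides. The median distance from the control mean was 0.37 on the log2 scale in sgMef2d replicate 1 and 0.48 in replicate 2. Replicate 2 was the higher of the pair in 32 members and replicate 1 in 19. The number of calls rested on having both libraries. With sgMef2d replicate 1 or 2 left out, the library that remained was assumed to vary like the controls, and fewer members were called. Mx1 was also tested without sgMef2d replicate 2, where it passed the filter only through sgMef2d replicate 1. The median of the members was 0.46 without replicate 1 and 0.40 without replicate 2. Ifit1, Ifitm3, Isg15, Lgals3bp, Oasl2, Rtp4 and Xaf1 kept their call in each of 14 alternatives of normalization, tool, filter, block and left-out library, and no called member changed direction in any of them. The other 19 called members lost their call in at least 1. Conversely, 10 members without a call were called when sgControl replicate 1 was left out, namely Ifit3, Ifih1, Eif2ak2, Adar, Gbp2, Parp9, Parp12, Helz2, Bst2 and Ifi27. Of the 25 members without a call, 17 had both sgMef2d libraries above all controls, where 20.6% of all genes tested did so.

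Members with low levels had the larger fold changes. Below a mean over all libraries of 10.5 CPM, 25 members had a median change of 0.70 on the log2 scale, a median standard error of 0.162, and 15 calls of a rise. The 26 members above that level had a median of 0.24, a median standard error of 0.0846, and 10 calls. Among all genes tested in the same ranges of level, 5.02% of the low and 3.12% of the high were called higher, and their median log2 fold changes were -0.00494 and 0.00479. No test was run on this split. Of the 5 members that rose by 1 or more on the log2 scale 4 were in the lower range, and the other, Isg15, at 6.87 CPM in sgControl and 20.2 CPM in sgMef2d, reached the upper range only through its sgMef2d values, which enter the mean. Ifitm3 combined a high level with a clear rise, as the plot of level against fold change shows.

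**Figure D4:**
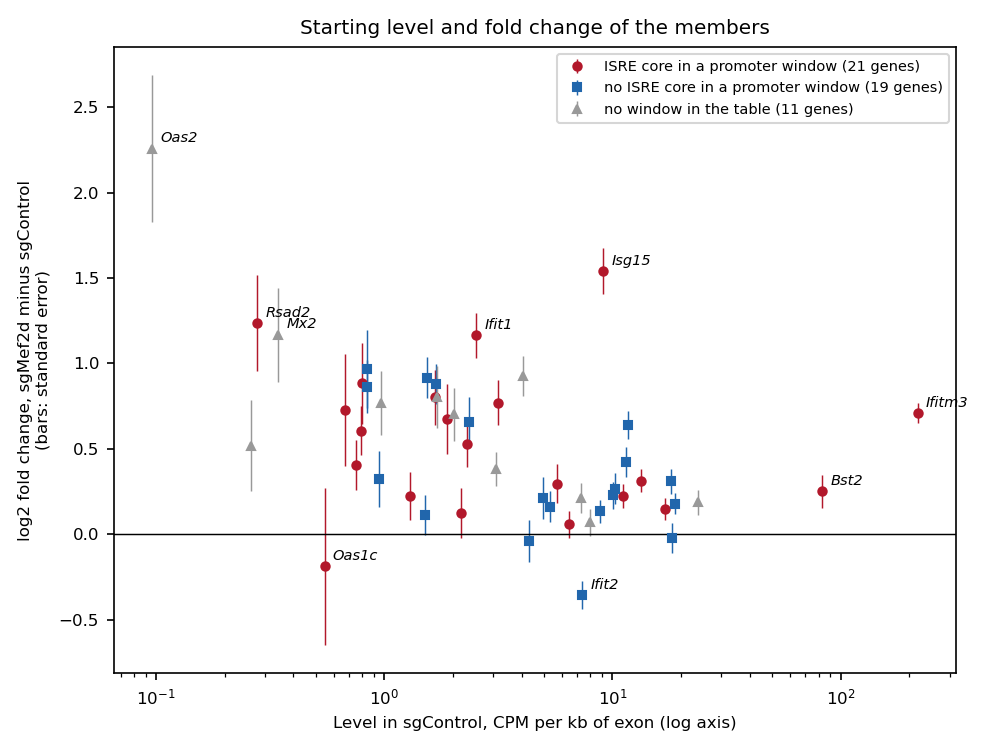
Mean sgControl level (CPM per kb of exon, log axis) against log2 fold change (sgMef2d minus sgControl, bars for the standard error) of the 51 members tested, marked by whether a promoter window held an ISRE core. Oas2, Rsad2 and Mx2 lie at the low end with large changes, and Ifitm3 and Bst2, both with the core, at the high end. Members with a window but no core lie between 0.838 and 18.8 CPM per kb.

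Members with and without an ISRE core in the promoter window overlapped in their changes. Of the 21 with a core 10 rose, and their log2 fold changes had a median of 0.53 and a range from -0.19 to 1.54. Of the 19 with a window but no core 8 rose, with a median of 0.27 and a range from -0.36 to 0.97. The split was not tested. Oasl2, Xaf1, Ifi44, Lgals3bp and Cmpk2 rose without a core in these letters, and Bst2, with 2 overlapping cores 130 and 124 bases before the start, had no call. The GAS core TTCNNNGAA was in the windows of 12 of the 40 members (30%) and of 8.08% of the genes tested. Of those 12 members 5 rose, with a median of 0.24 on the log2 scale, and of the 28 without it 13 rose, with a median of 0.36. In Ifitm3 and Ddx58 the ISRE core lay after the start site, and counting only the bases before the start left 15 members with a core.

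The genes of the signalling chain differed among themselves. None of the 10 interferon ligand genes of the list was in the count table. All 9 receptor and kinase genes had a negative log2 fold change, with a median of -0.20, and 2 of them fell: Ifngr2, the second chain of the interferon gamma receptor, was at 53.6, 47.7 and 51.96 CPM against 39.7 and 41.7 (log2 fold change -0.33, SE 0.08, adjusted p = 0.0231), and the kinase Jak2 at 41.5, 48.7 and 46.8 CPM against 37.1 and 33.8 (log2 fold change -0.36, SE 0.09, adjusted p = 0.0296). In 8 of the 9 both sgMef2d libraries lay below all sgControl libraries, as in 20.5% of all genes tested. DESeq2 and limma-voom each called 0 of the 9 higher and 2 lower. Both calls were lost without sgControl replicate 3 (adjusted p = 0.0505 for Ifngr2 and 0.062 for Jak2), without sgMef2d replicate 1 (0.257 and 0.115) and without sgMef2d replicate 2 (0.16 and 0.324), and that of Jak2 also without sgControl replicate 2 (0.111).

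Of the 11 STAT and IRF factors, several of which act on the effector promoters, 9 were tested. All 9 had positive log2 fold changes and 5 of them rose. Irf5 and Irf8 had too few counts for the test, at 0.439, 0.851 and 0.586 CPM against 0.471 and 0.539 for Irf5 and at 0.536, 0.496 and 0.366 CPM against 0.177 and 0.269 for Irf8, whose sgMef2d values lay below all controls. Irf7, the interferon-inducible factor that amplifies the response, was at 4.24, 5.32 and 3.74 CPM against 8.36 and 8.28 (log2 fold change 0.91, SE 0.16, adjusted p = 0.00616). Irf9, a DNA-binding part of the complex that binds the ISRE, was at 13.8, 15 and 14.9 CPM against 22.1 and 20.3 (log2 fold change 0.55, SE 0.10, adjusted p = 0.00588). Both were separated from their controls, and both calls were lost without sgMef2d replicate 1 (adjusted p = 0.0825 for Irf7 and 0.122 for Irf9) or replicate 2 (0.0743 and 0.0506). Stat2 was at 12.6, 16.7 and 17.2 CPM against 15.8 and 16.2 and did not pass (log2 fold change 0.06, adjusted p = 0.83). Stat3, which serves other pathways as well, rose by 0.28 (adjusted p = 0.0143), and its call was lost without sgControl replicate 2 (0.0546) and without sgMef2d replicate 1 or 2 (0.102 and 0.281).

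Of the other lists, 1 of 6 negative regulators rose, Socs3, by 0.72 (adjusted p = 0.00126). No adaptor or kinase of nucleic acid sensing was called among 10 in edgeR's test, and 1 of them had an unadjusted p below 0.05. DESeq2 and limma-voom also called 0 of these genes. In antigen presentation 1 of 13 genes rose, H2-T23, by 0.37 (adjusted p = 0.0496), a call that was lost without sgControl replicate 3 (0.0633) and without sgMef2d replicate 1 or 2 (0.132 and 0.457). Of 47 further interferon-inducible genes tested 11 rose and 1 fell, and the median over them was 0.09 on the log2 scale. Trim30a, Slfn2 and Apol9a had the largest rises there, of 1.16, 1.06 and 1.04, followed by Apol9b at 0.76, Ccl5 at 0.64, Slfn8 at 0.55, Txnip at 0.52, Pml and Ifi204 at 0.36, and Slfn9 and Ogfr at 0.23. Ifi47, an immunity-related GTPase, fell by 0.59 (SE 0.09, adjusted p = 0.00169), a call that was lost without sgMef2d replicate 1 (0.0575). Socs3, Trim30a, Slfn2, Apol9a and Apol9b kept their calls with each library left out in turn, and Ccl5, Slfn8, Txnip, Pml, Ifi204, Slfn9 and Ogfr lost theirs in at least 1 of these fits. Over the 94 pathway and further genes tested, 18 rose and 3 fell, with a median of 0.04, where 3.67% and 4.28% of all genes tested did so. Of these 21 calls 6 held without sgMef2d replicate 1 and 9 without replicate 2.

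**Figure D5:**
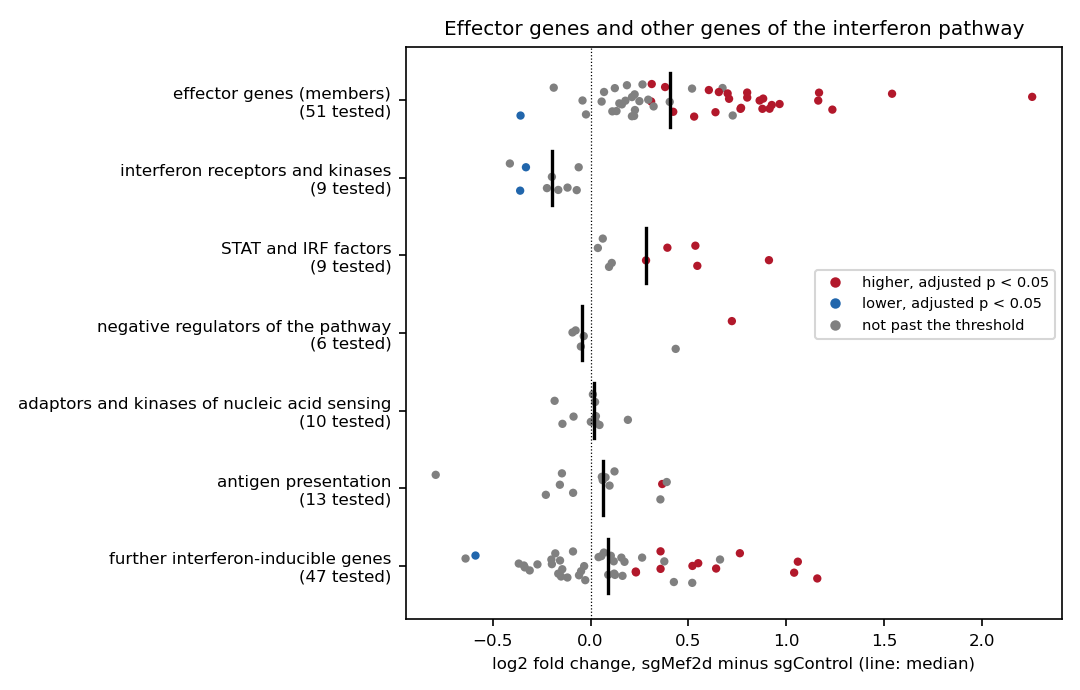
Log2 fold change (sgMef2d minus sgControl, horizontal axis) of each gene tested in the effector list and in 6 other lists of the interferon pathway, with a black line at each list's median. The medians are 0.40 for the effectors, -0.20 for receptors and kinases, and 0.28 for STAT and IRF factors, with red points for genes that rose and blue for genes that fell at an adjusted p below 0.05.

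The libraries expressed most of the epithelial markers listed, and fibroblast markers as well. In the sgControl means Col1a2 was at 425 CPM and Col1a1 at 168, whereas Col3a1 was at 1.85 and Dcn at 1.38. Krt7 was at 1589 CPM there, Epcam at 254 and Cdh1 at 253. Of 13 epithelial markers 12 were listed, summing to between 4735 and 4926 CPM in sgControl and between 4981 and 5204 CPM in sgMef2d. Of the 12, 3 were higher and 1 lower past the threshold, and of the 3 Krt5 passed the count filter through the sgMef2d libraries alone. The sum hides changes of single markers: Krt5 went from 3, 0 and 1 counts in sgControl to 260 and 211 in sgMef2d, Krt14 rose by 1.04 on the log2 scale and Cldn4 by 0.26, and Krt18 fell by 0.26. Of 13 blood cell markers 4 were listed, and Ptprc, the pan-leukocyte marker, was not among them. Their sum was between 3.96 and 4.68 CPM in sgControl and between 8 and 8.22 CPM in sgMef2d. Of the 4, Cd53 rose (log2 fold change 2.83, adjusted p = 7.21e-04), but it passed the count filter through the sgMef2d libraries alone. The 6 fibroblast markers listed summed to between 643 and 767 CPM in sgControl and between 608 and 649 CPM in sgMef2d, with 2 higher past the threshold (Col3a1, log2 fold change 1.45, and Dcn, 1.23) and 1 lower, Col1a2, the most abundant of them (-0.54). These are bulk RNA values, in which a change in all cells and a change in the number of cells that express a gene cannot be told apart. The part of these markers in the effector changes was not tested.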

How the data were processed

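Poly(A)-selected, strand-marked RNA libraries of 3 sgControl and 2 sgMef2d libraries of EpH4 cells were analysed. The authors deposited raw read counts per gene, made with FASTQC, STAR on GRCm38 and RSeQC. The submitters' processing notes also name CASAVA and Subread, while the methods credit the counts to a tool for ranked gene lists that does not count reads, so the counter is unclear. The 12934 identifiers matched GENCODE M21. The smallest highest count of any gene was 11, so a low-count filter had been applied before deposit, and library totals are sums over what is listed. All 5 per-sample columns were used.

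The counts were tested with edgeR 4.0.16 in R 4.3.3 (bias-adjusted quasi-likelihood test, TMM factors from 0.996 to 1.00, two-sided, adjusted p below 0.05 by Benjamini-Hochberg over 12483 genes). Genes passed a filter at 0.671 CPM in at least 2 libraries, from a minimum count of 10. CPM values use the TMM-scaled totals. The biological coefficient of variation was 0.0607. The script was tested on simulated data. Alternatives were other normalizations, DESeq2 1.42.0, limma-voom (limma 3.58.1), filters, thresholds, a replicate block, each library left out and, chosen after seeing the data, 3 summed pairs of near-copies or relatives (Ifit3 with Ifit3b, Oas1a with Oas1g, Mx1 with Mx2).

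The members, roles and other lists were chosen with earlier results of these data known. Every member is accounted for; full values are given for members called with a log2 fold change of at least 1 in size, for members called lower and for the 2 smallest p in each role, and called pathway genes are named with Stat2, Irf7 and Irf9, except for items that are not reported here. Counting intervals cover counting error only, since PCR copies were not identified.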

Additional observations from a re-analysis of the deposited data

How the results depend on the processing

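Other normalizations, the legacy form of the test, limma-voom and other count filters gave 24 to 26 members higher and 1 lower. Of all genes tested, 3.48% to 3.79% were higher in these fits. The 26 came from the fit with no filter, in which Mx1 was tested and called as well. DESeq2 called 21 higher and 0 lower, with 2.98% of all genes tested higher. An adjusted p below 0.01 left 10 members higher and 0 lower, with 11 pathway genes higher and 1 lower. At that threshold 1.63% of all genes tested were higher. An adjusted p below 0.1 gave 5 pathway genes lower, with 845 of the 12483 genes tested lower. Leaving out 1 library gave 8 to 35 members higher and 0 to 1 lower, 6 to 25 pathway genes higher and 0 to 12 lower, and medians of the members from 0.40 to 0.46. Over all genes, 3639 were called without sgControl replicate 1, against 992 with all libraries and 238 and 234 without sgMef2d replicate 1 or 2. The causes were not tested. The log2 fold change of 4 uncalled members changed sign when 1 library was left out: it ran from -1.205 to 0.4616 in Oas1c (positive without sgControl replicate 1 or sgMef2d replicate 1), from -0.0825 to 0.04387 in Isg20 (positive in the same fits), from -0.01554 to 0.1199 in Irgm1 (negative without sgMef2d replicate 2) and from -0.06145 to 0.2703 in Trim21 (negative without sgMef2d replicate 1). With the replicate block 26 members were higher and 1 lower, 25 of them shared with the fit without it. The median was 0.44, and 1254 genes were called, with 4.74% of all genes tested higher. Adar and Helz2 gained a call there (adjusted p = 0.0126 and 0.00113) and Oas1a lost it (0.0522). There was no sgMef2d replicate 3, so sgControl replicate 3 had a block to itself and added nothing to the group difference. The block fit was thus close to the fit without that library (0.3687 and 0.368 for Trim25). The numbers did not pair the libraries, as the deviations of same-numbered libraries correlated at 0.0113 and -0.000916. With 1 mismatch allowed, 36 of 40 members had an ISRE core, as did 31.5% of genes tested. Mx1 and Mx2 summed rose by 1.39 (adjusted p = 0.00765). Genes under about 3 counts, such as Mx1 in sgControl, are limited by depth.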
